A study of Drosophila melanogaster with 8 samples.

Results

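The imaginal disc growth factors of Drosophila melanogaster are a family of secreted proteins, and their RNA was followed here in larval eye disc tumours of animals raised on a high sucrose diet (HSD) or a control diet (CD). The members were the 6 genes Idgf1, Idgf2, Idgf3, Idgf4, Idgf5 and Idgf6, found by their FlyBase identifiers among 15682 gene rows, and all 6 had counts in all 8 libraries. All tumours, on both diets, had the same genotype, ras1G12V;csk-/-. A UAS transgene supplied the activated Ras protein (G12V), and csk, whose product holds Src kinases in check, was disrupted by the Q156Stop allele. Activated Ras and full loss of csk were confined to GFP-labelled clones of the eye epithelium, made by an eyeless-driven FLP recombinase, so the pooled dissected tissue of a library could also hold cells outside the clones. Animals on HSD, with 1.0 M sucrose, were dissected on day 14 (4 libraries), and animals on CD, with 0.15 M sucrose, on day 8 (4 libraries). Per the study's methods, these days were those on which larvae of each diet were late in the third instar, development being slower on HSD. Age in days went wholly with diet, so an effect of sucrose and an effect of the later day cannot be told apart. The study profiled these tumours to look for factors they release on HSD that act on muscle, and later for amino acid transporters.

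Imaginal disc growth factors belong by sequence to the GH18 family of chitinases, the enzymes that cut chitin in cuticle and tracheal lining, but have lost the catalytic residue and do not cut chitin. They were first purified from medium conditioned by imaginal disc cells, whose growth in culture they promote together with insulin. Later work in the fly linked family members to wound healing, clotting of the larval blood and cuticle formation, and in the larva the fat body and the blood cells, or haemocytes, are known sources of these proteins beside the discs. Idgf1, Idgf2 and Idgf3 stand in a row on 1 chromosome arm, and the other members lie elsewhere in the genome.

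Total counts ranged from 11558860 to 19963565 per library. Of the 9257 genes with enough counts to test, 52.1% were called, that is, had an adjusted p under 0.05 in the quasi-likelihood test of edgeR, with p-values adjusted by Benjamini-Hochberg across the whole table. The share called higher in HSD was 25.9% and the share called lower was 26.2%. The first principal component of all genes separated the diets, and the second, with 10.3% of the variance, set HSD replicate 4 and CD replicate 1 apart from the other 6 libraries. Values that rest on these 2 libraries are therefore given with and without them. All 8 markers of the eye-antennal disc were detected on both diets, but their summed CPM was lower in HSD, from 1356 to 1666 in HSD and from 2219 to 2449 in CD. Of the 8, toy, so, eya, dac and hth fell, Lim1 rose, and ey and Optix were not called. CPM are counts per 1000000 counts of a library whose size was scaled by TMM, the trimmed mean of M values. Each library was made from pooled tissue, and the study describes the 4 libraries of a diet as biologically independent, while the labels do not say whether they came from separate cultures.

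Of the 6 growth factors, 4 were called, against 52.1% of all genes tested. Idgf1 was higher in HSD, 1 of 6 against 25.9% of all genes, and Idgf2, Idgf3 and Idgf6 were lower, 3 of 6 against 26.2%. Idgf4, the member with by far the most RNA, and Idgf5, the one with the least, were not called. The CPM of the 4 HSD and 4 CD libraries did not overlap for 3 members, Idgf1, Idgf2 and Idgf3, where 50.5% of all genes tested did not overlap. The share of members without overlap was thus that of all genes, and with 6 members the counts called do not set the family apart from them. The median log2 fold change of the 6 members was -0.52, beside 0.00 for all genes tested.

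**Figure D1:**
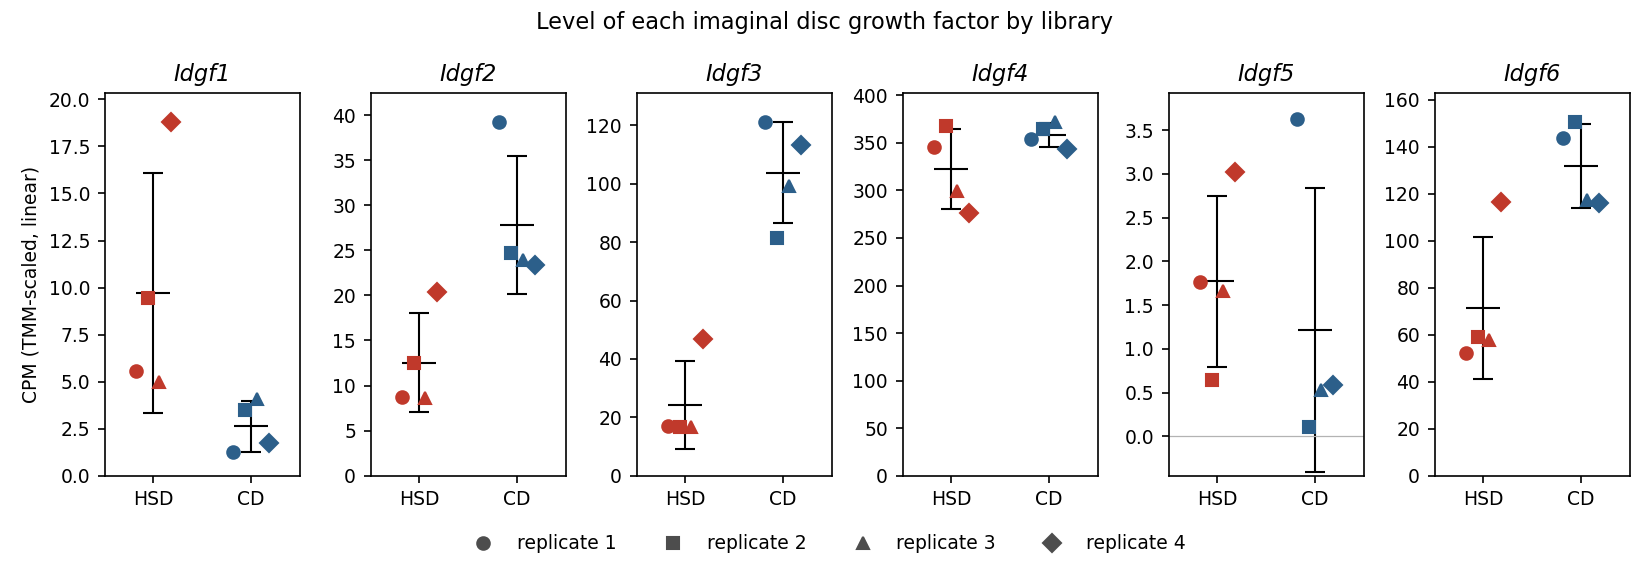
CPM of each imaginal disc growth factor in the 4 HSD libraries (red, left) and the 4 CD libraries (blue, right), on a linear axis for each gene; horizontal bars are means, whiskers are 1 SD and marker shapes are replicate numbers. Idgf1 was higher and Idgf2 and Idgf3 were lower in all 4 HSD libraries than in any CD library, and HSD replicate 4 (diamond) stood highest of the HSD libraries for every gene but Idgf4.

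Idgf1 (FBgn0020416) lies at 2L 16445278 to 16446793 on the plus strand of the BDGP6 annotation, with 1445 bp of exon in 1 annotated transcript. It had 5.55, 9.45, 5.0 and 18.8 CPM in HSD replicates 1 to 4, against 1.24, 3.50, 4.07 and 1.75 CPM in CD replicates 1 to 4. The lowest HSD library was above the highest CD library, and HSD replicate 4 was well above the other HSD libraries. These levels rested on 104, 176, 90 and 261 counts in HSD and on 15, 62, 61 and 33 counts in CD. The mean was 9.70 ± 6.39 CPM in HSD and 2.64 ± 1.36 CPM in CD (SD, n = 4 each). Idgf1 rose 3.65-fold, by 1.87 on the log2 scale (SE 0.54, 95% interval 0.68 to 3.05, adjusted p = 0.0128 by edgeR). The rise measured 1.34 when HSD replicate 4 was left out (adjusted p = 0.0492 by edgeR), and without HSD replicate 4 and CD replicate 1 together it was 1.12 (adjusted p = 0.0473 by edgeR). The call thus held by a small margin in both cases, and was lost where an adjusted p under 0.01 was asked for.

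Idgf2 (FBgn0020415), the next gene of the row, lies at 2L 16447330 to 16450508 on the same strand. Its levels were 8.69, 12.5, 8.67 and 20.3 CPM in HSD, against 39.2, 24.7, 23.9 and 23.4 CPM in CD, in replicate order. Every HSD library was below every CD library, HSD replicate 4 coming closest to CD and CD replicate 1 lying farthest from HSD. The mean was 12.5 ± 5.49 CPM in HSD and 27.8 ± 7.66 CPM in CD (SD, n = 4 each). Idgf2 fell by 1.15 on the log2 scale (SE 0.29, adjusted p = 0.00702 by edgeR), so that CD was 2.22-fold above HSD. Leaving out HSD replicate 4 gave -1.47 and leaving out CD replicate 1 gave -0.92, and the call held both times (adjusted p = 0.000483 and 0.0222 by edgeR).

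Idgf3 (FBgn0020414), the last gene of the row, lies at 2L 16450907 to 16455194. It is the member that has been tied to wound healing and to clotting in larvae. It had 17.2, 16.6, 16.6 and 46.9 CPM in HSD, against 121, 81.5, 99.3 and 113 CPM in CD. HSD replicates 1 to 3 were nearly level, and HSD replicate 4 stood at 2.79 times their mean, yet still under the lowest CD library. The mean was 24.3 ± 15.1 CPM in HSD and 104 ± 17.4 CPM in CD (SD, n = 4 each). Idgf3 fell by 2.10 on the log2 scale (SE 0.33, 95% interval -2.83 to -1.37, adjusted p = 0.000325 by edgeR), the deepest fall of the family, with CD 4.29-fold above HSD. By its log2 fold change it lay above 10.8% of all genes tested, so falls of this depth were not rare. Leaving out HSD replicate 4 deepened it to -2.62, with a smaller SE of 0.14 (adjusted p = 3.35e-07 by edgeR).

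The 3 genes of the row thus moved in opposite directions over a stretch from 2L 16445278 to 16455194 in which they read the same way. Idgf1 and Idgf2 are 536 bp apart, and Idgf2 and Idgf3 are 398 bp apart. The log2 ratio of Idgf1 to Idgf3 ran between -1.73 and -0.81 in the HSD libraries and between -6.61 and -4.54 in the CD libraries. That of Idgf1 to Idgf2 ran between -0.79 and -0.11 in HSD and between -4.99 and -2.55 in CD. In both ratios the diets were far apart, HSD replicate 4 and CD replicate 1 included. The ratio of Idgf2 to Idgf3 differed less, between -1.21 and -0.41 in HSD and between -2.28 and -1.63 in CD, also without overlap. Counts of 2 members of a family could share reads where their sequences are alike. How the authors treated reads with several alignments is not given in the sources used here, and sharing of reads within the family was not tested.

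The genes named here from around the row were also called, as were 52.1% of all genes tested. CG5888, on the opposite strand at 2L 16400175 to 16448469, spans the whole of Idgf1 and the start of Idgf2 without sharing an exon base with either. CG5888 averaged 23.4 CPM in HSD and 78.7 CPM in CD, and fell by 1.75 on the log2 scale (adjusted p = 4.57e-06 by edgeR). The next protein-coding gene beyond Idgf3 is dac, a retinal determination gene, 11317 bp away. dac averaged 121 CPM in HSD and 303 CPM in CD and fell by 1.32 on the log2 scale (adjusted p = 1.27e-05 by edgeR). On the other side the nearest protein-coding genes clear of CG5888 and Idgf1 are jhamt and CaBP1, 78238 and 88542 bp from Idgf1. jhamt averaged 1.64 CPM in HSD and 11.3 CPM in CD and fell by 2.81 on the log2 scale (adjusted p = 0.00462 by edgeR), and CaBP1 averaged 468 CPM in HSD and 292 CPM in CD and rose by 0.68 (adjusted p = 8.84e-05 by edgeR). Of these named genes only CaBP1, the farthest from Idgf1, rose, where 25.9% of all genes tested were called higher. CG5888, jhamt and CaBP1 were chosen after their values were seen. The library kit marks strand, but whether the counting used it is not given in the sources used here.

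Idgf6 (FBgn0013763) lies at 2R 16691022 to 16693751 and is the member first described as a protein that cultured fly blood-like cells secrete. Its levels were 52.4, 58.9, 57.8 and 116.4 CPM in HSD, against 144, 151, 117 and 116.1 CPM in CD. HSD replicates 1 to 3 lay far below all CD libraries, and HSD replicate 4 lay level with the lowest 2 of them. The mean was 71.4 ± 30.1 CPM in HSD and 132 ± 17.9 CPM in CD (SD, n = 4 each). Idgf6 fell by 0.89 on the log2 scale (SE 0.23, adjusted p = 0.00776 by edgeR), with CD 1.85-fold above HSD, and it fell by 1.22 when HSD replicate 4 was left out (SE 0.12, adjusted p = 1.00e-05 by edgeR). Idgf6 sits inside Pgant9, a gene on the opposite strand for an enzyme that starts mucin-type glycosylation, with no exon base in common. Pgant9, also chosen after its values were seen, averaged 22.0 CPM in HSD and 68.0 CPM in CD and fell by 1.63 on the log2 scale (adjusted p = 2.49e-06 by edgeR).

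Idgf4 (FBgn0026415) lies at X 9927973 to 9930948 on the minus strand. It had 346, 368, 299 and 276 CPM in HSD, against 355, 365, 372 and 343 CPM in CD. The diets overlapped, HSD replicate 2 lying among the CD libraries and HSD replicate 4 lowest of all. The mean was 322 ± 42.1 CPM in HSD and 359 ± 12.7 CPM in CD (SD, n = 4 each), and the log2 fold change was -0.15 (95% interval -0.35 to 0.04, adjusted p = 0.171 by edgeR). The interval leaves room for a fall of up to 0.35 on the log2 scale, and whether Idgf4 was called depended on how libraries were scaled. Idgf4 was called lower under upper-quartile scaling (-0.22, adjusted p = 0.0425 by edgeR), total counts alone (-0.29, adjusted p = 0.0106) and scaling to ribosomal protein genes (-0.50, adjusted p = 0.000948). The last 2 of these also moved the median of all genes, to -0.13 and -0.34 on the log2 scale.

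Idgf5 (FBgn0064237) lies at 2R 18393666 to 18395282 and had few reads. It had 1.76, 0.644, 1.67 and 3.03 CPM in HSD, against 3.63, 0.113, 0.534 and 0.584 CPM in CD, from 33, 12, 30 and 42 counts in HSD and 44, 2, 8 and 11 counts in CD. CD replicate 1 held the highest value of all 8 libraries, while the other CD libraries were below every HSD library. The log2 fold change was 0.56 (95% interval -1.54 to 2.67, adjusted p = 0.651 by edgeR), which allows a change of several fold in either direction. Without CD replicate 1 it was 2.12 (adjusted p = 0.0644 by edgeR), and without HSD replicate 4 it was 0.19. With all 8 libraries limma-voom gave 1.38. The size of the estimate thus depended on single libraries and on the method, and Idgf5 was not called in any of these fits.

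**Figure D2:**
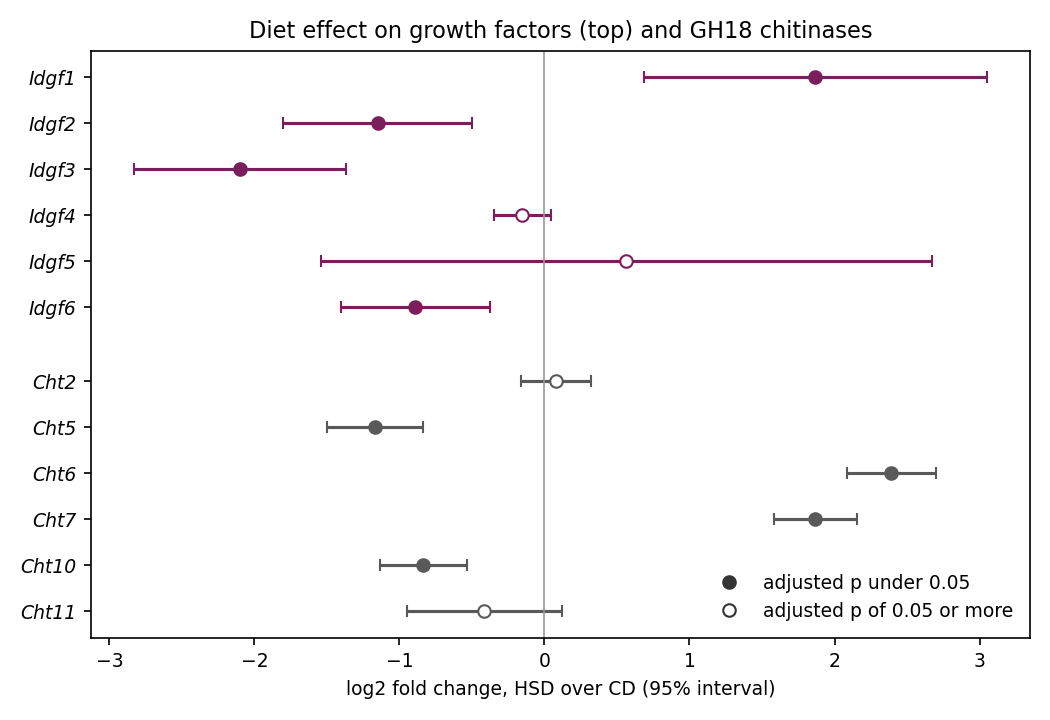
Log2 fold change, HSD over CD, of the 6 growth factors (purple, top) and of the 6 tested genes of the GH18 chitinases (grey), with 95% intervals from edgeR; filled points had an adjusted p under 0.05. Idgf1 stood at 1.87 and Idgf3 at -2.10, the interval of Idgf5 ran from -1.54 to 2.67, and Cht6 and Cht7 were the chitinases that rose.

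Levels of different genes can be set side by side only per length of transcript, so CPM were also divided by the kilobases of exon of each gene. In HSD the order by mean CPM per kb was Idgf4 (176 ± 23.0), Idgf6 (39.4 ± 16.6), Idgf2 (6.99 ± 3.06), Idgf1 (6.71 ± 4.42), Idgf3 (6.15 ± 3.81) and Idgf5 (1.19 ± 0.653), all SD with n = 4. In CD it was Idgf4 (196 ± 6.90), Idgf6 (72.9 ± 9.87), Idgf3 (26.3 ± 4.40), Idgf2 (15.5 ± 4.26), Idgf1 (1.83 ± 0.940) and Idgf5 (0.812 ± 1.09). Idgf4 and Idgf6 led in both diets with no overlap between them or with the members below. In HSD the ranges of Idgf1, Idgf2 and Idgf3 lay within one another, whereas in CD Idgf1 was below both Idgf2 and Idgf3 in every library. Idgf2 and Idgf3 in CD overlapped by their ranges, from 13.0 to 21.9 and from 20.6 to 30.7 CPM per kb, though Idgf3 was the higher of the 2 within each library. Idgf1 and Idgf5 overlapped in CD.

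Against the other genes tested, Idgf4 stood above 95.6% of them by mean CPM per kb in HSD and above 97.1% in CD. Idgf6 stood above 76.8% in HSD and 89.9% in CD, and Idgf3 above 28.9% in HSD and 66.7% in CD. Idgf1 went the other way, above 30.2% of genes in HSD and 12.4% in CD. The place of Idgf3 depended on the length used, since its 4 annotated transcripts run from 1649 to 3801 bp. Divided by its shortest transcript, Idgf3 averaged 14.7 CPM per kb in HSD and 63.0 CPM per kb in CD. By that length it came next after Idgf6 in both diets, above Idgf2, which averaged 9.18 CPM per kb in HSD and 20.3 CPM per kb in CD.

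The family as a whole had less RNA in HSD. Its summed CPM was 431, 466, 389 and 482 in HSD, against 664, 625, 617 and 598 in CD. The highest HSD library was below the lowest CD library, with a mean of 442 ± 41.3 CPM in HSD and 626 ± 27.6 CPM in CD (SD, n = 4 each). The make-up of the family also differed between the diets. Idgf4 took 81.4%, 79.9%, 78.2% and 59.5% of the summed CPM per kb in HSD, against 58.8%, 62.4%, 65.6% and 63.5% in CD. HSD replicate 4 lay within the CD range for this share, and the other HSD libraries were above all of CD. Idgf3 took between 1.67% and 4.69% of the family in HSD and between 6.46% and 9.73% in CD, and Idgf1 took between 1.66% and 5.14% in HSD and between 0.260% and 0.911% in CD. Neither of these shares overlapped between the diets. The size of the Idgf3 share depended on the length used. It averaged 2.56% in HSD and 8.41% in CD by summed exon, against 4.97% in HSD and 15.4% in CD by the shortest transcript of each gene.

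**Figure D3:**
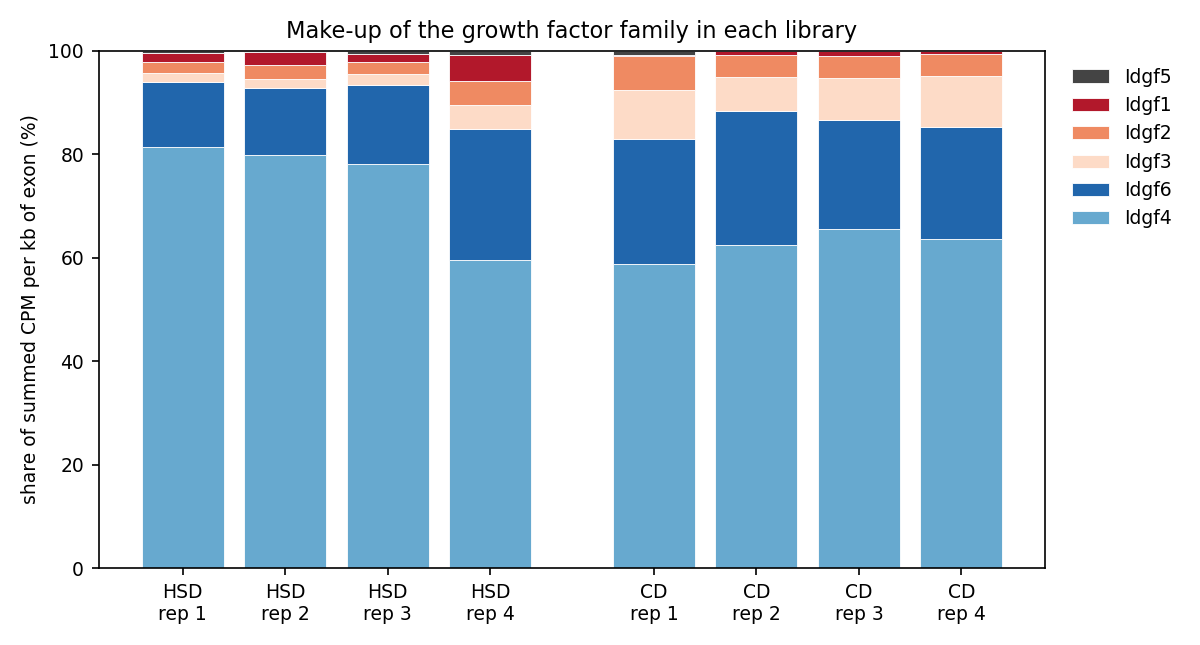
Share of each growth factor in the summed CPM per kb of exon of the family, in the 4 HSD libraries (left) and the 4 CD libraries (right); each bar is the whole family. Idgf4 took between 78.2% and 81.4% in HSD replicates 1 to 3 and 59.5% in HSD replicate 4, against 58.8% to 65.6% in CD.

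HSD replicate 4 stood apart for most of the family. Its CPM were 2.82 times the mean of the other HSD libraries for Idgf1, 2.04 times for Idgf2, 2.79 times for Idgf3, 2.23 times for Idgf5 and 2.06 times for Idgf6, while Idgf4 was at 0.818 times. In CD replicate 1 the departures were uneven: Idgf5 was at 8.84 times the mean of the other CD libraries, Idgf2 at 1.64 times and Idgf1 at 0.398 times. Among members, Idgf2, Idgf3 and Idgf6 varied together, with a Pearson correlation of log2 CPM of 0.94 for Idgf2 with Idgf3, 0.95 for Idgf2 with Idgf6 and 0.94 for Idgf3 with Idgf6 over the 8 libraries. These values describe 8 libraries that share 2 diets. After the mean of each diet was taken away they became 0.82, 0.84 and 0.84, and Idgf4 went against Idgf3 with -0.73. Without HSD replicate 4 and CD replicate 1 the correlations over the remaining 6 libraries were 0.95, 0.96 and 0.95, but within diets they were -0.19 for Idgf2 with Idgf3, 0.35 for Idgf2 with Idgf6 and -0.90 for Idgf3 with Idgf6, and -0.22 for Idgf3 with Idgf4. The likeness of Idgf2, Idgf3 and Idgf6 within diets, and the opposite course of Idgf4, thus rested on those 2 libraries.

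HSD replicate 4 also stood apart in markers of the fat body and of haemocytes. The summed CPM of 8 fat body markers was 862, 1438, 1489 and 3415 in HSD, against 2201, 1607, 1609 and 1572 in CD, highest in HSD replicate 4 and, among the CD libraries, in CD replicate 1. The diets overlapped, none of the 8 was at 0 and 0 of 8 were called by edgeR, 0 had an unadjusted p under 0.05, 0 were called by DESeq2 and 1 by limma-voom. Without HSD replicate 4, 3 of the 8 were called lower. The sum of 8 haemocyte markers was 210, 199, 231 and 322 CPM in HSD, against 238, 278, 254 and 256 CPM in CD, again highest in HSD replicate 4 but lowest of the CD libraries in CD replicate 1, with 2 of 8 called lower, Pxn and crq, and no more than 1 when any single library was left out. Salivary gland markers summed to 4711 CPM in CD replicate 1, against 18.6 to 304 CPM in the HSD libraries and no more than 20.4 CPM in CD replicates 2 to 4. Between the diets, all 8 neuron markers were lower in HSD, with sums from 89.1 to 154 CPM in HSD and from 1772 to 2187 CPM in CD. Of the 8 markers of the eye-antennal disc itself, 5 were lower and 1 higher. Over all genes tested, 25.9% were called higher and 26.2% lower. The part of any of these cell types in the levels of the growth factors was not tested, and in pooled tissue fewer cells of a type and less RNA per cell cannot be told apart.

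**Figure D4:**
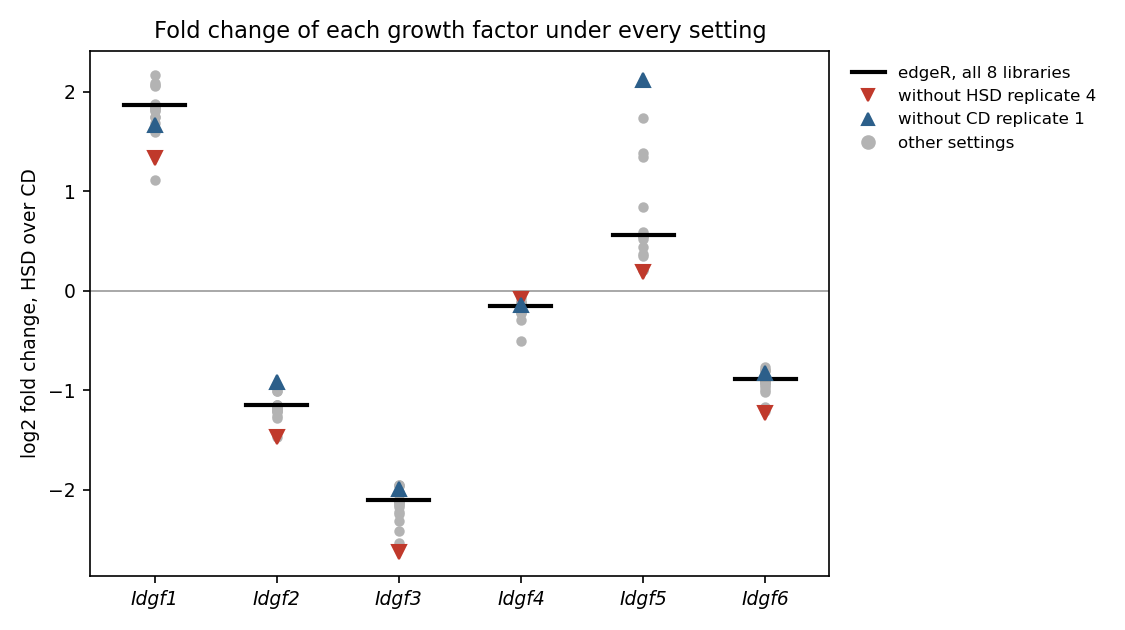
Log2 fold change, HSD over CD, of each growth factor with all 8 libraries (black bar), without HSD replicate 4 (red triangle), without CD replicate 1 (blue triangle) and under the other scalings, filters, tests and left-out libraries (grey). Idgf1 stayed above 0, Idgf2, Idgf3 and Idgf6 stayed below 0, Idgf4 stayed between -0.50 and -0.08, and Idgf5 ran from 0.19 to 2.12.

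For each member, the genes whose log2 CPM followed it most closely over the 8 libraries were looked up among the genes with a mean of at least 10 CPM. Idgf3 was closest to CG4822 (Pearson r = 0.995), which fell by 1.79 on the log2 scale, and to B52, a splicing factor (r = 0.993), which fell by 0.36. Idgf6 was closest to SAK, a kinase of centriole duplication (r = 0.988), and to Amph, a membrane-bending protein (r = 0.984). Idgf2 was closest to FBgn0052486, which has no symbol (r = 0.979), and to CG42807 (r = 0.978). Idgf1 was closest to Klp3A, a kinesin-like motor protein (r = 0.963), and to CG3071 (r = 0.956). Idgf4 and Idgf5 had looser partners: alpha-Est9, an esterase-like gene (r = 0.949), and Rtnl1, a reticulon of the endoplasmic reticulum (r = 0.930), for Idgf4, and CG12091 (r = 0.951) and CG13690 (r = 0.934) for Idgf5. Without HSD replicate 4 and CD replicate 1 the r of these 12 pairs was between 0.862 and 0.998, lowest for Rtnl1 with Idgf4. The partners had been picked for the highest r among 7075 or 7076 genes, in libraries that include the remaining 6. High values were thus favoured in advance, and r within diets was not computed for these pairs. With 8 libraries in 2 diets, these values describe likeness only.

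The true chitinases of the GH18 family, the closest relatives of the growth factors by sequence, moved in both directions. Of 10 genes measured, 6 could be tested, and 2 were called higher and 2 lower, against 25.9% and 26.2% of all genes tested. Cht6 had 1228, 1657, 1337 and 982 CPM in HSD, against 273, 244, 240 and 235 CPM in CD, and rose by 2.39 on the log2 scale (SE 0.14, adjusted p = 3.86e-07 by edgeR). Cht7 averaged 145 ± 19.6 CPM in HSD and 39.8 ± 5.74 CPM in CD (SD, n = 4 each), and rose by 1.87 (adjusted p = 1.01e-06 by edgeR). Cht10, which the list also holds under its older name Cht3, averaged 318 ± 61.9 CPM in HSD and 568 ± 70.4 CPM in CD and fell by 0.84 on the log2 scale (adjusted p = 0.000406 by edgeR). Cht5, a chitinase of the moulting cuticle, averaged 11.8 ± 1.54 CPM in HSD and 26.5 ± 1.44 CPM in CD and fell by 1.17 (adjusted p = 7.23e-05 by edgeR). Cht2 (log2 fold change 0.08) and Cht11 (-0.41) were not called. Cht4, Cht8, Cht9 and Cht12 had at most 8, 15, 7 and 14 counts in any library and were not tested. Among the HSD libraries, replicate 4 was lowest for Cht2, Cht6 and Cht7, highest for Cht11 and in between for Cht5 and Cht10.

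Lists around the known roles of the growth factors were read as counts beside the 25.9% of genes called higher and the 26.2% called lower. Of 10 genes of chitin matrix assembly tested, 5 rose and 4 fell, rtv by a log2 fold change of 1.32, Cda4 by -1.31 and obst-A by -1.18. Of 11 factors secreted by wounded discs, 9 rose and 1 fell, led by the cytokines upd3 (3.29) and upd2 (3.20) and the PDGF/VEGF-like ligand Pvf1 (2.78). Of 9 clot genes tested, 3 rose, Tig (3.06), Tg (2.54) and Glt (0.56), and 0 fell by edgeR, against 1 by DESeq2 and 2 by limma-voom. Of 6 adenosine deaminase growth factors, a separate family of secreted enzymes, 2 could be tested. By edgeR 1 of them was called, Adgf-A, which fell by 2.27 on the log2 scale, against 2 called lower by DESeq2 and 2 by limma-voom. Of 10 partners of insulin signalling tested, the pathway with which imaginal disc growth factors act in culture, 4 rose and 3 fell. The falls were Ilp2, Ilp3 and Ilp5, insulin-like peptides of brain neurons, which averaged 0.389, 0.174 and 0 CPM in HSD, against 30.8, 10.8 and 10.5 CPM in CD, alongside the fall of all 8 neuron markers. The part of neurons in these 3 falls was not tested.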

How the data were processed

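The authors made stranded mRNA libraries, trimmed the paired reads (Trim Galore 0.4.4), aligned them (TopHat2 2.0.11, dm3 genome) and counted them by gene (featureCounts), per the labels and the submitters' processing notes. The deposited values were raw counts per gene, not normalised. Strand setting and treatment of reads with several alignments are not given in the sources used here. Of 15682 gene rows, 15002 (95.7%) matched a symbol. The BDGP6 annotation, whose build differs from dm3, gave the positions and exon lengths, and none was converted.

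The diets were compared in R 4.3.3 with edgeR 4.0.16. The filter filterByExpr left 9257 genes, all 6 growth factors among them. After TMM scaling, diet was tested two-sided by quasi-likelihood, p-values were adjusted by Benjamini-Hochberg across these genes, and the threshold was 0.05. DESeq2 1.42.0, the tool of the study, and limma-voom (limma 3.58.1) were alternatives. The SE was the log2 fold change over the square root of the F statistic. CPM were counts per 1000000 of the scaled library, and correlations between genes were taken on log2 CPM after adding a prior count of 2. Depth was 11558860 to 19963565 counts per library. The reads carry no molecular identifiers and may not be independent molecules. Counts of a few reads carried more than counting error: among genes expected at 5 to 20 counts, 15.3% to 41.0% were at 0 in a library, against at most 0.0917% under Poisson counting. The expected count came from the other libraries of the same diet, so spread between libraries enters these zeros, and their cause was not tested. No libraries were duplicates: within each diet, every pair of libraries had a chi-square of 11.4 or more per degree of freedom.

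The members and all gene lists were chosen with earlier results of these data known. Genes named were the 6 growth factors, all GH18 chitinases, at most 3 genes of each other list (the largest changes among called members with a mean of 10 CPM or more in either diet), and for each member the 2 genes of highest correlation. Other genes were chosen after their values were seen, as were the shortest-transcript lengths and the correlations without 2 libraries. Lists of trachea, muscle and glia markers were computed too: 4 of 7, 2 of 7 and 2 of 8 were called higher in HSD, and 2, 3 and 5 were called lower. Of all genes tested, 25.9% were called higher and 26.2% lower. btl, wupA and InR were not analysed here, and no comparison of protein or promoter sequences was made.

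On simulated counts of 9201 genes with 198 changed, edgeR recovered 175 (88.4%) with 2.78% false calls. Every simulated gene had the same dispersion, and no simulated library was set apart. In the data 52.1% of genes were called, far more than were changed in the simulation. The simulation thus checks the fitting steps and does not give the error rate of the calls made here. Alternatives were other scalings (DESeq2 size factors, upper quartile, total counts, TMM without the 10 most abundant genes, ribosomal protein genes), filters, tests, an adjusted p under 0.01, left-out libraries, a replicate block and other scales of the level.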

Additional observations from a re-analysis of the deposited data

Results flagged for a closer look

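In 4 of 12 groups, each the 4 libraries of a diet for 1 growth factor, a single library's gap to its nearest neighbour passed Dixon's 95% limit for 4 values. The gap was taken as a share of the group's whole range in CPM. For independent groups of normally distributed values, chance gives about 1 in 20, or 0.6 of 12. The 12 groups share the same 8 libraries and are not independent, so 4 against 0.6 does not measure an excess over chance. HSD replicate 4 was the high library for Idgf3 (46.9 CPM, gap 0.981 of the range) and for Idgf6 (116.4 CPM, gap 0.899 of the range). CD replicate 1 was the high library for Idgf2 (39.2 CPM, gap 0.919 of the range) and for Idgf5 (3.63 CPM, gap 0.866 of the range). These are the libraries that the second principal component of all genes set apart, with the highest fat body marker sums of their diets. CD replicate 1 also held 4711 CPM of salivary gland markers, against at most 20.4 CPM in CD replicates 2 to 4. The part of fat body, salivary gland or any other tissue in these 4 values was not tested.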

How the results depend on the processing

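Idgf1, Idgf2, Idgf3 and Idgf6 kept their direction under all 20 alternatives and stayed called in all of them but 1, where Idgf1 missed an adjusted p under 0.01, so that 0 growth factors were then higher. Idgf4 was called lower under 3 scalings, with log2 fold changes of -0.22 (upper quartile), -0.29 (total counts) and -0.50 (ribosomal protein genes). The median of all genes tested was -0.06, -0.13 and -0.34 under these scalings, in the same order. Idgf5 was called in none of 19, and could not be tested with at least 10 counts in every library. With 1 library left out at a time, the log2 fold change ran from 1.34 to 2.17 for Idgf1, -1.47 to -0.92 for Idgf2, -2.62 to -1.95 for Idgf3, -0.22 to -0.08 for Idgf4, 0.19 to 2.12 for Idgf5 and -1.22 to -0.76 for Idgf6, with between 4387 and 4999 genes called in all. Scaling to ribosomal protein genes gave 1069 genes higher and 3946 lower, against 2400 and 2423 under TMM, and the cause was not tested. The share of Idgf4 in the family in CD was 57.3% by CPM and 58.1% by the shortest transcript, against 62.6% per kb of exon, by construction of the length used. Same-numbered libraries had correlations of their deviations from the diet mean of -0.061, -0.0042, 0.075 and -0.15. So few values cannot decide whether same-numbered libraries were paired, and the labels do not say. The fit with replicate number as a block called 4609 genes and changed no call of a growth factor, with log2 fold changes of 1.81 for Idgf1, -1.20 for Idgf2, -2.24 for Idgf3, -0.16 for Idgf4, 1.34 for Idgf5 and -0.96 for Idgf6. Idgf5 had the fewest counts, 2 to 44 per library, a range where zeros were far more frequent than Poisson counting gives.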
